A study of Mus musculus with 20 samples.

Results

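The promoters of 8 genes at the paternally methylated imprinted domains of the mouse were described in sperm DNA, and these genes were H19, Igf2, Dlk1, Meg3, Rian, Mirg, Rtl1 and Rasgrf1. They were chosen by gene symbol, and each symbol had 1 row, so that 8 of the 22480 promoters of the table were members. In the deposited annotation, 8 of 8 were marked as imprinted, among 126 promoters with this mark. DNA came from sperm of the vas deferens and epididymis of F1 males killed at 8 weeks of age. There were 4 groups of 5 males, of the wild type strains C57BL/6J and FVB/N. Their mothers had been given, by mouth, either corn oil alone (controls) or bis(2-ethylhexyl)phthalate (DEHP, a plasticizer) in corn oil at 300 mg/kg/day from day 9 to 19 of gestation. The labels do not say which males were littermates. The values therefore describe the spread between males and not between litters.

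Genomic imprinting is the expression of a gene from 1 parental copy, set by DNA methylation that is laid down in the germ line. Most imprinting control regions are methylated in the egg, and only a few, at H19-Igf2, at Dlk1-Meg3 and near Rasgrf1, are methylated in the male germ line. At H19-Igf2 the control region lies upstream of H19 and binds the insulator protein CTCF on the unmethylated maternal copy, and at Dlk1-Meg3 it lies between both genes. Mature sperm is known to carry methylation at these control regions and to lack it at the maternally methylated ones.

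In the assay (MBD-sequencing), DNA fragments with methylated CpG are captured with a methyl-CpG binding domain and sequenced in pairs. The measurement is the number of normalized read-pairs over a probe of 2200 bp that runs from 2000 bp before to 200 bp after the start of a gene. It grows with the methylation of the probe and with its number of CG sites, so that levels were compared between genes only after division by the number of CG sites. The authors deposited a mean and an SD of 5 libraries for each group, with 1 decimal, and single libraries were not analysed here. No test was therefore run and no p-value is given. Instead, the range in which all 5 libraries of a group must lie was computed from the mean and SD (mean ± 1.79 SD, widened for rounding), and groups whose ranges did not overlap are called apart. Where 4 values are given in a row, their order is C57BL/6J controls, then DEHP-exposed C57BL/6J males, then FVB/N controls, then DEHP-exposed FVB/N males. In this order the authors' means summed over all promoters to 226268.0, 153283.0, 141091.6 and 150346.0. The authors report more and slightly longer read-pairs on average for DEHP than for control libraries, and the reads behind each single library are not known. All DEHP samples went to sequencing in 1 of 2 batches and all controls in the other, so that treatment and batch cannot be told apart.

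The 8 probes are given first by what they cover in mm10. The H19 probe (chr7:142577947-142580146, minus strand) held 56 CG sites and ran into the first exon of this long non-coding RNA over 197 bases. The Igf2 probe (chr7:142660836-142663035, minus strand) held 47 CG sites and lay at an internal start, 5781 bases from the outermost annotated start of this fetal growth factor gene, where it met exons of Igf2 and of its antisense gene Igf2os. On chromosome 12, the probes of Dlk1 (chr12:109450823-109453022, plus strand, 23 CG sites), Meg3 (chr12:109538996-109541195, plus strand, 66), Rian (chr12:109601945-109604144, plus strand, 12) and Mirg (chr12:109727764-109729963, plus strand, 32) lay within 5 bases of an annotated start. The Rtl1 probe (chr12:109595204-109597403, minus strand, 34 CG sites) started at the coding sequence of this retrotransposon-derived gene, 4927 bases inside it, so that the probe was mostly intronic (285 exonic bases, with exons of Mir136 and Mir3071 on the other strand). The Rasgrf1 probe (chr9:89907775-89909974, plus strand) was the densest, with 113 CG sites, more than 94.8% of all promoters. In the deposited annotation, 0 of the 8 probes held a variant between both strains, and the Rasgrf1 gene carried 3 functional variants.

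The probes were then set against the known control regions, since a promoter probe need not reach them. The core of the CTCF motif (CCGCNNGGNGGC, both strands searched) was found at 4 places within 10 kb upstream of the H19 start, in GRCm38.p6. All 4 lay beyond the far end of the H19 probe, by 164, 619, 1645 and 1889 bases. The core was found in 0 of the 8 member probes and in 762 of all 22480 probes (3.39%). The 4 sites are printed because they lie outside the measured window. They do not set the edge of the H19 control region, and fragments of about 200 bp can reach across the end of the probe. Each is read 5′ to 3′ on the strand of H19 with 20 bases on either side, and capitals mark the core. Site 1 is chr7:142580291-142580342, site 2 is chr7:142580746-142580797, site 3 is chr7:142581772-142581823 and site 4 is chr7:142582016-142582067.
Site 1: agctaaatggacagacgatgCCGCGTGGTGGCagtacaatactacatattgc
Site 2: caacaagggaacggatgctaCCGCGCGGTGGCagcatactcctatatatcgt
Site 3: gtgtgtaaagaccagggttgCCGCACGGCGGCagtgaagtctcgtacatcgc
Site 4: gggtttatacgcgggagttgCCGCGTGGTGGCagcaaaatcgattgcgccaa
Each core held CG sites of its own. Sites 1 and 4 had the same core, and sites 2 and 3 each had another one.

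**Figure D1:**
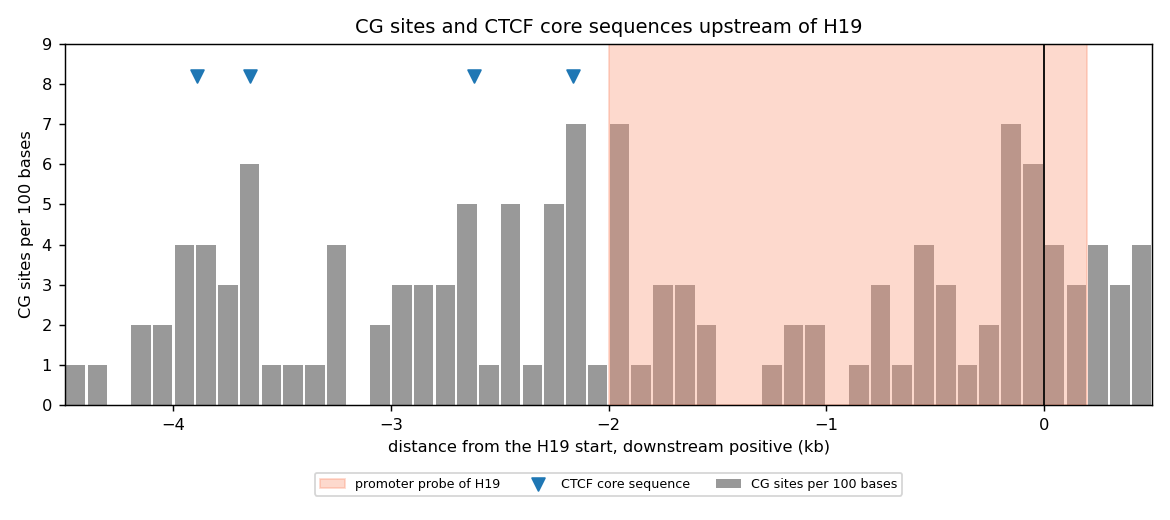
Number of CG sites per 100 bases (grey bars) against the distance from the H19 start in kb, with the promoter probe shaded and the CTCF core sequences as triangles. The 4 triangles lie upstream of the shaded probe, the nearest 164 bases beyond its end, and the probe holds 56 CG sites.

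For Dlk1-Meg3 no probe lay in the 85973 bases between the Dlk1 and Meg3 probes, where the control region of this domain is known to be. The nearest probe upstream of Rasgrf1 was 81056 bases away (4930524O08Rik). The values below thus describe promoters of imprinted genes and not the control regions as a whole. At H19, signal from fragments of the nearby control region cannot be told apart from that of the promoter.

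The sequence of 4 probes is shown by its window of 200 bases richest in CG sites outside exons, because they set probes with high signal (Mirg and H19) beside Meg3, whose signal differed most between groups, and Rasgrf1, with the most CG sites and the lowest level. Sequences are from GRCm38.p6, 5′ to 3′ on the strand of the gene, with CG sites in capitals. The windows are chr12:109728473-109728672 for Mirg, chr7:142578144-142578343 for H19, chr12:109539608-109539807 for Meg3 and chr9:89908631-89908830 for Rasgrf1.
Mirg: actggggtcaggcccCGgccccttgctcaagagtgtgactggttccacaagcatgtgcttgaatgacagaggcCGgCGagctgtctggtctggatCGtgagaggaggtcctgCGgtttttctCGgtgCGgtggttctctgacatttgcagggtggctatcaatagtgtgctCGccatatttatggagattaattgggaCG
H19: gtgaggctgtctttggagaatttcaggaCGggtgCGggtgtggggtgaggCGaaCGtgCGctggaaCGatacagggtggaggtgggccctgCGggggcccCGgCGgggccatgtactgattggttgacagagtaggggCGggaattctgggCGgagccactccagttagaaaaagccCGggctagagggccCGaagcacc
Meg3: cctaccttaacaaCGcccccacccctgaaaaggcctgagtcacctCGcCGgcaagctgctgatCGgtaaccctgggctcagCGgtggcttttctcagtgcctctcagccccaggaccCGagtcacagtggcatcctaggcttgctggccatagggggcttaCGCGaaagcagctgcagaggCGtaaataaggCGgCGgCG
Rasgrf1: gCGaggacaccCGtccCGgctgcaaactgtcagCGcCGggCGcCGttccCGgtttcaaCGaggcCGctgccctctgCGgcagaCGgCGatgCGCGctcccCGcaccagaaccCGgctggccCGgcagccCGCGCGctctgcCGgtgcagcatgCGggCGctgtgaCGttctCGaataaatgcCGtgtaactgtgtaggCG
The windows held 9 CG sites for Mirg, 13 for H19, 12 for Meg3 and 28 for Rasgrf1. In the whole probe the ratio of observed to expected CG was 0.242 for Mirg, 0.390 for H19, 0.417 for Meg3 and 0.698 for Rasgrf1, against a median of 0.358 over all promoters. Rian had the lowest ratio of the members (0.0942), with 4.9% of all promoters below it.

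Per CG site, the members spread widely, and the promoters of domains named for paternal methylation were not all highly methylated. Averaged over the 4 groups, the level was 0.888 normalized read-pairs per CG site at Mirg, a host gene of microRNAs, and 0.685 at Rtl1, a gene that the placenta needs. It was 0.471 at Rian, a non-coding RNA that hosts small nucleolar RNAs, and 0.355 at H19. Meg3, the maternally expressed long non-coding RNA of the domain, had 0.179. Dlk1, a paternally expressed ligand-like membrane protein, had 0.117. The lowest levels were those of Igf2 (0.0420) and of Rasgrf1, a paternally expressed guanine nucleotide exchange factor (0.0259). Division by the number of CG sites did not remove its influence, so that this order partly follows CG number. In C57BL/6J controls, promoters of like CG number had a median mean of 15.9 for Dlk1 (23 CG sites) and 2.8 for Rasgrf1 (113). The order against such promoters differed and is given below.

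The members were then ordered anew by their level within each group, and neighbours in these orders were rarely apart. Within each group, 7 pairs of neighbouring members could be compared, and the possible ranges of both overlapped in each pair except Rtl1 over H19 in FVB/N DEHP (0.632 against 0.312). The ends of the orders differed more clearly. Among the 9 pairs of Mirg, Rtl1 or H19 with Igf2, Dlk1 or Rasgrf1, the higher was apart from the lower in 9, 7, 6 and 8 pairs in the 4 groups. These 6 genes were put in 2 sets after their values were seen, and the counts are a description.

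Set against the 22480 promoters, the median percentile of the members' level per CG site was 73.8, 60.6, 63.0 and 63.2 in the 4 groups. In the same order, 5, 5, 6 and 5 of 8 members lay above the median of all promoters. Promoters of 21 genes at maternally methylated domains (among them Peg3, Snrpn, Mest and Kcnq1ot1) had median percentiles of 37.3, 41.8, 49.8 and 44.0, and 4, 9, 9 and 6 of these 21 lay above the median of all promoters. Both lists overlapped in their levels, since Igf2, Dlk1 and Rasgrf1 lay within the range of the maternal list in each group. The highest level of the maternal list was 0.384, 0.267, 0.262 and 0.293, and the mean levels of H19, Mirg and Rtl1 exceeded it in each group. H19 was at 0.452 (SD 0.130), 0.321 (0.125), 0.336 (0.102) and 0.312 (0.0607). It exceeded the maternal list by less than its own SD in each group and was not clearly above it.

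**Figure D2:**
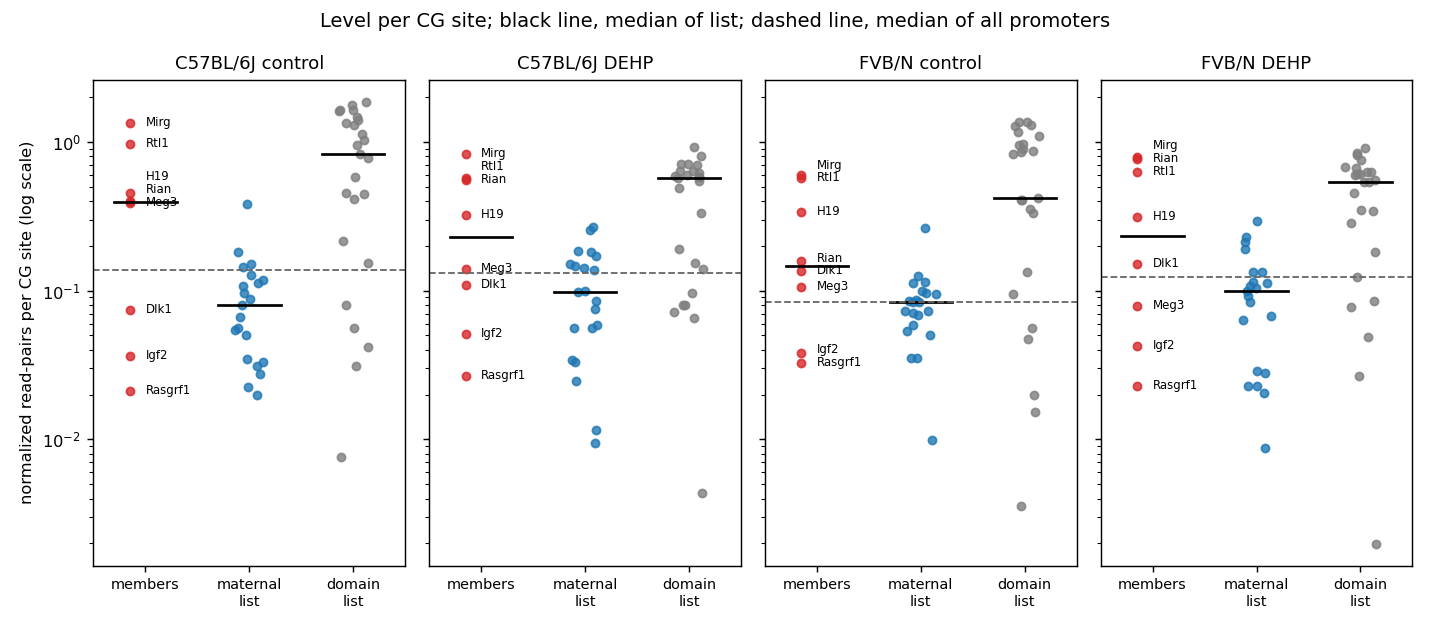
Normalized read-pairs per CG site (log scale) of the 8 members (red, named), 21 promoters of maternally methylated domains (blue) and 25 other promoters of the members' domains (grey), 1 panel per group. Black lines are medians of a list and dashed lines the median of all promoters, and 1 promoter listed at 0 (Ankrd34c in FVB/N controls) is not drawn. The means of Mirg, Rtl1 and H19 lie above the whole maternal list in each panel, that of H19 by less than its SD.

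Probes of like CG number (within 10%) gave a second measure of where a member stood. H19 had 5.06, 3.64, 6.27 and 3.80 times the median of such probes in the 4 groups. Between 93.1% and 97.2% of these probes lay below it. Mirg had 2.98, 2.73, 2.49 and 2.66 times the median of its own like probes, and Rtl1 2.79, 2.26, 2.88 and 2.56 times. H19, Mirg and Rtl1 were thus above most promoters of their CG number in the 4 groups. The maternal list was not wholly below them on this measure. Its highest promoter in each group was Nnat, at 5.89, 2.11, 6.96 and 3.56 times the median of its own like probes. Nnat was above H19, Mirg and Rtl1 in the controls of both strains. It was above Mirg and Rtl1 but not H19 in FVB/N DEHP, and below all of them in C57BL/6J DEHP.

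Meg3 stood at 5.73 times the median of like probes in C57BL/6J controls, but at 2.00, 2.59 and 1.21 times in the remaining groups. Rian was near its like probes, at 0.826 to 1.74 times the median. Rasgrf1 was at 0.857 to 1.85 times the median, so that its low level per CG site was that of other promoters with many CG sites. Igf2 (0.327 to 0.581 times) and Dlk1 (0.107 to 0.360 times) stood below their like probes in each group.

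H19 and Igf2 share enhancers on chromosome 7, and in the embryo H19 is read from the maternal copy and Igf2 from the paternal copy. At H19 the authors' mean in C57BL/6J was 25.3 (SD 7.3) for controls and 18.0 (7.0) for DEHP males, and in FVB/N it was 18.8 (5.7) and 17.5 (3.4). The highest group was 1.45 times the lowest, and the possible ranges of the 5 libraries overlapped in each of the 4 comparisons (12.1 to 38.5, 5.34 to 30.7, 8.46 to 29.1 and 11.3 to 23.7). At Igf2 the authors' mean was 1.7 (0.7), 2.4 (1.2), 1.8 (1.3) and 2.0 (1.5) in the 4 groups, with ranges that overlapped throughout. H19 was therefore the most even of the highly methylated members, and Igf2 was low in each group.

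Dlk1, Meg3, Rtl1, Rian and Mirg lie in 1 domain on chromosome 12, with Dlk1 and Rtl1 expressed from the paternal copy and the non-coding genes from the maternal copy. At Meg3 the authors' mean in C57BL/6J was 25.8 (SD 10.3) for controls and 9.2 (2.7) for DEHP males, and in FVB/N it was 7.0 (2.0) and 5.2 (0.7). C57BL/6J controls stood highest and also had the largest SD, and a library of this group could lie as low as 7.24. Dlk1 was low, with 1.7 (0.7), 2.5 (0.7), 3.1 (4.7) and 3.5 (0.9). The SD of Dlk1 in FVB/N controls exceeded its mean, so that the libraries of this group were uneven.

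At Mirg the authors' mean was 42.6 (4.0), 26.5 (8.3), 19.2 (7.2) and 25.3 (5.9). The libraries of C57BL/6J controls were confined between 35.3 and 49.9, and those of FVB/N controls between 6.18 and 32.2. Rtl1 had the same highest group, with 32.9 (12.3), 19.4 (6.4), 19.3 (7.1) and 21.5 (3.7), but overlapping ranges. Rian was the member that varied most after Meg3, with 4.8 (2.8), 6.7 (2.9), 1.9 (2.1) and 9.2 (4.4). Its highest group was 4.84 times its lowest, against 4.96 times at Meg3. With 12 CG sites, Rian gave few read-pairs, and its SD in FVB/N controls exceeded its mean.

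At Rasgrf1 on chromosome 9, the authors' mean was 2.4 (3.3), 3.0 (0.9), 3.7 (3.1) and 2.6 (2.3). The ranges of the 4 groups overlapped, and 3 of them reached 0. The SD exceeded the mean in C57BL/6J controls.

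**Figure D3:**
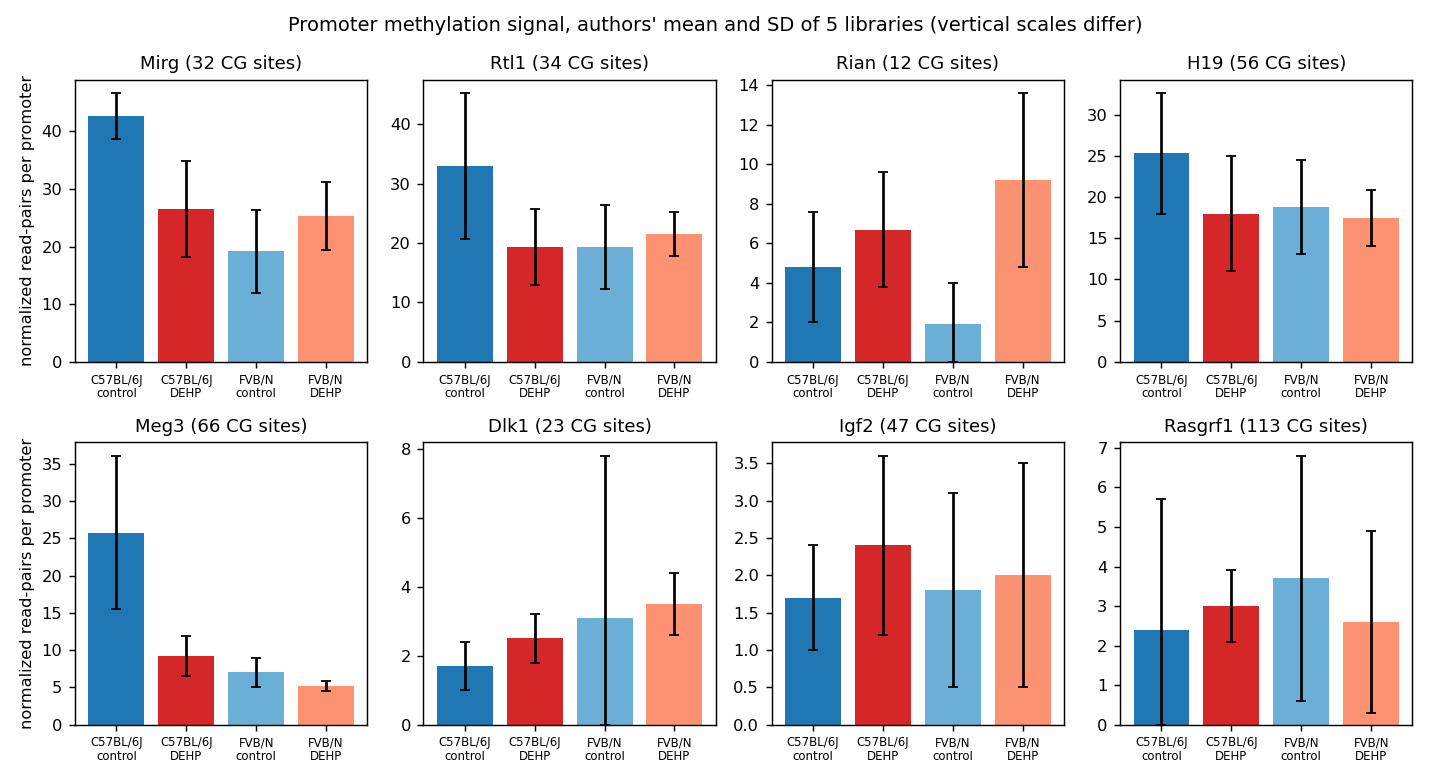
Authors' mean of normalized read-pairs per promoter in the 4 groups, 1 panel per member in the order of level per CG site. Bars start at 0, error bars are the authors' SD of 5 libraries and are ended at 0 where they would pass it, and the vertical scales differ between panels. C57BL/6J controls are the highest group at Mirg, Rtl1, H19 and Meg3, and FVB/N DEHP at Rian and Dlk1.

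The effect of prenatal DEHP was described as the log2 ratio of DEHP over control, with a pseudocount of 1 added to both means and an SE derived from the authors' SD. Over all promoters C57BL/6J had a median log2 ratio of −0.10 and FVB/N one of 0.35, so that each member is also given relative to promoters of like CG number. In C57BL/6J, 1 of 8 members was below −1 on the log2 scale, and 10.7% of all promoters were. Above 1 stood 0 of 8 members and 5.15% of all promoters. The groups were apart at 0 of 8 members and at 1.67% of all promoters.

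The member below −1 in C57BL/6J was Meg3, with a log2 ratio of −1.39 ± 0.30 (SE), which is 2.63-fold lower in DEHP on this scale. Relative to promoters of like CG number it was −1.28, and 3.4% of all promoters were lower. The difference of the means was 1.61 times the larger SD and the ranges overlapped. With means scaled to equal sums the ratio was −0.86 and no longer 2-fold, and relative to promoters of like level it was −0.69. Meg3 in C57BL/6J was thus lower in DEHP under each of these settings, but by an amount that rests on the scaling.

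Mirg (−0.66 ± 0.20), Rtl1 (−0.73 ± 0.31) and H19 (−0.47 ± 0.30) were also lower in C57BL/6J DEHP by the log2 ratio of means. Their like-CG promoters were lower too, and relative to these the differences were −0.18, −0.28 and −0.36. Relative to promoters of like level the sign was the opposite, at 0.50, 0.25 and 0.35, and at H19 it also turned with means scaled to equal sums (0.07). At the members with low signal, DEHP was higher by 0.37 ± 0.21 at Dlk1, 0.33 ± 0.28 at Igf2, 0.41 ± 0.40 at Rian and 0.23 ± 0.64 at Rasgrf1. Relative to promoters of like level these were at 0.07, 0.03, 0.38 and −0.07. In all, 4 of 8 members were higher and 4 lower by the log2 ratio of means, with a median of −0.12.

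In FVB/N, 1 of 8 members was above 1 on the log2 scale, and 14.5% of all promoters were. Below −1 stood 0 of 8 members and 2.69% of all promoters, and the groups were apart at 0 of 8 members and 1.63% of all promoters. The member above 1 was Rian, with a log2 ratio of 1.81 ± 0.54, which is 3.52-fold higher in DEHP, and 99.3% of all promoters had a lower ratio. Promoters of like CG number were higher as well (median 0.87), and relative to them Rian was at 0.95. The difference of the means was 1.66 times the larger SD and the ranges overlapped, from 0 to 5.80 in controls and from 1.19 to 17.2 in DEHP. The other members of FVB/N lay between −0.38 ± 0.59 at Rasgrf1 and 0.38 ± 0.27 at Mirg. With means scaled to equal medians the sign turned at Mirg (−0.30), Rtl1 (−0.53), Igf2 (−0.38) and Dlk1 (−0.42), and the ratio moved to −0.77 at H19 and −0.99 at Meg3. Meg3 was at −0.37 ± 0.18, or −0.69 relative to promoters of like CG number. H19 (−0.10 ± 0.22), Rtl1 (0.15 ± 0.25), Igf2 (0.10 ± 0.44) and Dlk1 (0.13 ± 0.75) differed by less than 1 SE as deposited.

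The DEHP ratio was then compared between both strains as C57BL/6J minus FVB/N. It was −1.41 at Rian, −1.05 at Mirg, −1.03 at Meg3 and −0.88 at Rtl1, against a median of −0.50 over all promoters. Of 8 members, 3 were below −1 and 18.3% of all promoters were, and 0 of 8 were above 1 (2.26% of all promoters). Relative to promoters of like CG number the differences were −0.90 at Rian, −0.42 at Mirg, −0.55 at Meg3 and −0.28 at Rtl1, so that none passed 1 below, and Rasgrf1 stood just above 1. With means scaled to equal sums or equal medians none of these 4 was below −1 either, and Rasgrf1 was above 1 instead (1.09 and 1.12). H19 was at −0.37, Igf2 at 0.23, Dlk1 at 0.24 and Rasgrf1 at 0.62. Since 0 of 8 members had DEHP and control groups apart in either strain, none could be apart in opposite directions, and this shows nothing further about the difference between strains.

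Strains were compared within each treatment, and hence within a batch. These comparisons use the same 4 groups as the comparisons of treatment, so that the C57BL/6J controls enter both. Among controls, the median log2 ratio of C57BL/6J over FVB/N was 0.54 over all promoters. Above 1 stood 2 of 8 members and 16.5% of all promoters, and below −1 stood 0 of 8 members and 0.569% of all promoters. The groups were apart at 1 of 8 members and at 1.09% of all promoters. The ratio was 1.74 ± 0.30 at Meg3 (3.35-fold higher in C57BL/6J), with 98.5% of all promoters below it. Relative to promoters of like CG number Meg3 was still at 1.24, and with means scaled to equal sums or equal medians it was at 1.11 and 1.08.

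Mirg was the member with controls apart, at a log2 ratio of 1.11 ± 0.24 (2.16-fold higher in C57BL/6J) and a difference of 3.25 times the larger SD. This call ended with means scaled to equal sums (0.45) or equal medians (0.40), where the ranges overlapped. Rian, with means of 4.8 and 1.9, was at the 2-fold limit and not above it (SE 0.56 on the log2 scale). Rtl1 was at 0.74 ± 0.33 and H19 at 0.41 ± 0.26. For Rtl1 and H19 this was close to promoters of like CG number, relative to which they were at 0.14 and −0.10. At H19 the sign turned with means scaled to equal sums (−0.24) or equal medians (−0.30). FVB/N controls had the higher mean at Dlk1 (−0.60 ± 0.76), Rasgrf1 (−0.47 ± 0.76) and Igf2 (−0.05 ± 0.34), against the direction of most promoters. Their SE was larger than the ratio itself. Relative to promoters of like CG number, Dlk1 was at −1.31 and Rasgrf1 at −0.87. With means scaled to equal sums they were at −1.05 and −0.96, and with equal medians at −1.16 and −1.05.

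Among DEHP males no member differed 2-fold between the strains. The median log2 ratio of all promoters was 0.04. Above 1 stood 0 of 8 members and 2.71% of all promoters, below −1 stood 0 of 8 and 0.298%, and the groups were apart at 0 of 8 members and 0.338% of all promoters. Meg3 had the largest ratio, 0.72 ± 0.19 in favour of C57BL/6J, and it was at 0.68 relative to promoters of like CG number. In both treatments, therefore, the Meg3 mean was higher in C57BL/6J than in FVB/N. Mirg (0.06 ± 0.24) and H19 (0.04 ± 0.27) differed by less than 1 SE, as did Rtl1 (−0.14 ± 0.23), Igf2 (0.18 ± 0.39) and Rasgrf1 (0.15 ± 0.44). Dlk1 (−0.36 ± 0.18) and Rian (−0.41 ± 0.37) had the higher mean in FVB/N.

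**Figure D4:**
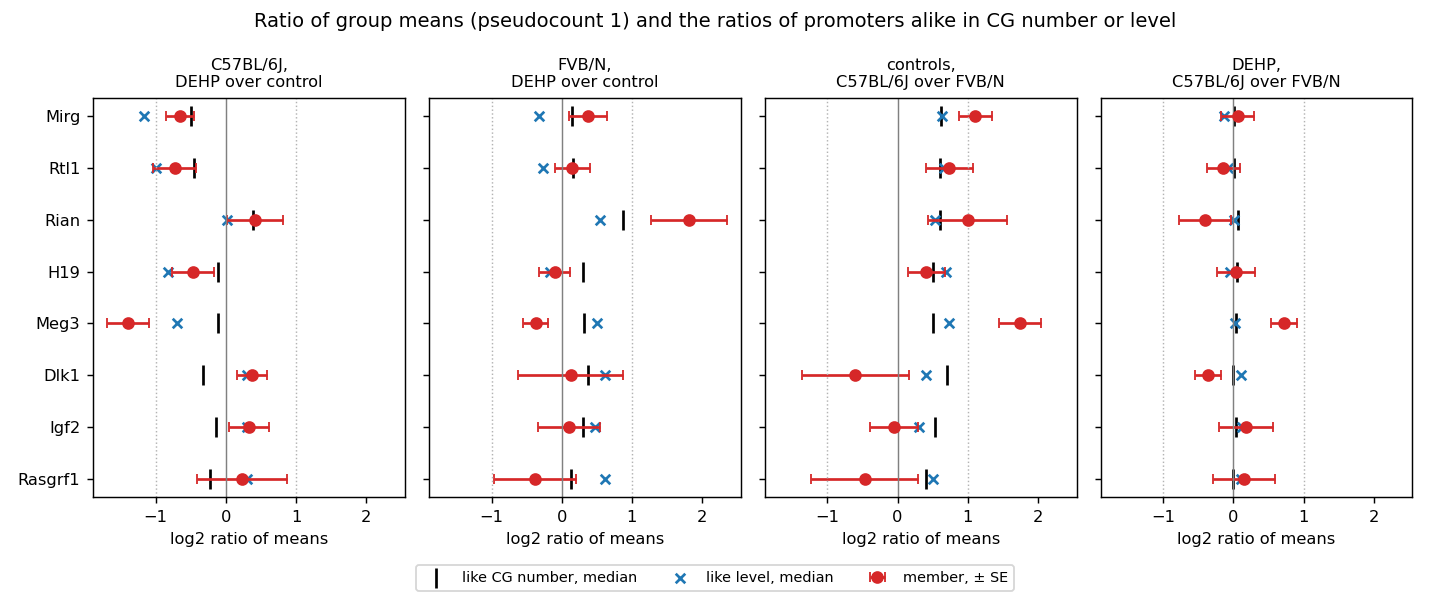
Log2 ratio of group means (pseudocount 1) of the 8 members in the 4 comparisons, as red points with the SE, beside the median ratio of promoters with like CG number (black ticks) and of like level (blue crosses). Dotted lines mark a 2-fold ratio. Meg3 lies farthest left in C57BL/6J (−1.39), Rian farthest right in FVB/N (1.81) and Meg3 farthest right among controls (1.74), while all members lie within the dotted lines among DEHP males.

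Other genes of the 3 domains, from a list of 29 symbols of which 25 were in the table, are given by counts. In C57BL/6J, 10 of 25 were below −1 in DEHP (10.7% of all promoters) and 0 above 1 (5.15%), with a median of −0.76 (−0.48 relative to promoters of like CG number). Relative to promoters of like level, Mir434 and Mir136 of these 10 were at 0.61 and 0.38. Mir431 (−0.22), Th (−0.27), Begain (−0.49) and Ctsh (−1.32) were lower, and the rest lay at 0.02 to 0.07. In FVB/N, 2 of 25 were below −1 (2.69% of all promoters) and 2 above 1 (14.5%), with a median of −0.26. The groups were apart at 1 of 25 in C57BL/6J (1.67% of all promoters) and at 5 of 25 in FVB/N (1.63%), each lower in DEHP. Some probes of the list overlap, so that these counts are not of separate loci. The middles of the Mir434 and Mir136 probes, for example, lie 52.61 and 53.43 kb from the Meg3 start.

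In C57BL/6J the promoter apart was Begain, a gene next to the domain on chromosome 12 with a mean of 8.9 (SD 1.6) in DEHP and 19.9 (3.1) in controls. In FVB/N they were Th, which encodes the enzyme that limits catecholamine synthesis (16.3 (3.4) against 35.2 (6.9)), and the microRNA genes Mir770, Mir431, Mir434 and Mir136, with log2 ratios between −1.15 ± 0.11 (Mir434) and −0.71 ± 0.12 (Mir770). Promoters of like level were lower in DEHP too, and relative to them Mir434 was at 0.52, Mir136 at 0.14, Mir431 at −0.18, Mir770 at −0.28 and Th at −0.61. Relative to its own like-level promoters in C57BL/6J, Begain was at −0.49. Among controls it was Ctsh, the gene of the protease cathepsin H on the chromosome of Rasgrf1, with 8.5 (2.7) in C57BL/6J and 0.9 (1.3) in FVB/N. No promoter of the list was apart among DEHP males.

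The Mir136 probe shared 323 bases with the Rtl1 probe, and yet their ratios differed. In FVB/N DEHP over control, Mir136 was at −0.97 ± 0.14 and Rtl1 at 0.15 ± 0.25. In C57BL/6J both were lower, at −1.33 ± 0.37 and −0.73 ± 0.31. The difference between both probes was not tested. The Mirg probe shared 565 bases with that of Mir539.

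Between Dlk1 and Dio3os the table held 68 promoters, of which 55 were microRNA genes, with a median level per CG site of 1.27, 0.729, 1.01 and 0.817 in the 4 groups. Mirg lay within their range in each group, above 33, 44, 6 and 26 of the 55. Dlk1 and Meg3, at the left end of the domain, lay below the lowest of them (0.712, 0.434, 0.362 and 0.453) in each group.

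The promoters most like Mirg over the 4 groups, among 1811 with like CG number, were Mir1231 (distance 0.0970 on log2 means), Mir6897 (0.178) and Otub2 (0.220). Those most like Rtl1, among 1769, were Krt23 (0.144), Popdc2 (0.154) and Sycn (0.172). Mir1231, on chromosome 1, had means of 43.6, 25.6, 18.6 and 26.5 in the 4 groups, close to those of Mirg. The pattern of Mirg over the groups was therefore also found at a promoter on another chromosome.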

How the data were processed

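MBD-sequencing was done on sperm of 20 males, with DNA broken to about 200 bp. Alignment to mm10 used Bowtie 0.12.7, after which ambiguous pairs, pairs spanning over 600 bp and pairs without CpG were removed, and pairs on each promoter probe were counted and normalized in edgeR. The signal that the authors deposited is the mean and SD per group. Their fold changes, p-values and FDR, and 6 columns of expression from another dataset, were not used. The test planned for values of single libraries was replaced by no test.

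Computed were log2 ratios of means with a pseudocount of 1, their SE by the delta method with 5 libraries per group, medians over promoters with a CG number within 10% or a level within 0.25 (log2), and the possible range of libraries. Sequences came from GRCm38.p6 (RefSeq), and starts and exons from GENCODE. The named genes were the 8 members, the genes of their domains whose groups were apart or whose probe overlapped that of a member, and the 3 promoters nearest to each of Mirg and Rtl1. Nnat was named after its values were seen. The members and lists were chosen with earlier results of these data known. Alternatives were a pseudocount of 0.1, scaling to equal sums or medians, counting from promoters of like CG number or like level, a mean of at least 1, a range of 1 SD, and CG numbers of the reference. Software was Python 3.11.15, numpy 2.4.6, pandas 2.3.3 and matplotlib 3.10.9.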

Additional observations from a re-analysis of the deposited data

How the results depend on the processing

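The counts of members past a 2-fold ratio and of groups apart rested on scaling. With equal sums, 0 members passed 2-fold in C57BL/6J, where 14.7% of all promoters were above 2-fold and 2.22% below. The controls were apart between strains at 0 members and at 0.418% of all promoters. Under this scaling 1 member, Rasgrf1 (1.09), differed past 1 between strains in its DEHP ratio, in place of Rian, Mirg and Meg3. Equal medians gave 0 members with controls apart (0.418% of all promoters) and 1 member past 1 between strains, again Rasgrf1 (1.12). Between the strains' controls, Meg3 stayed above 1 under both scalings and Mirg did not. Above 1 stood 3.21% of all promoters with equal sums and 3.50% with equal medians. Dlk1 fell below −1 with equal sums, where 2.55% of all promoters did. Dlk1 and Rasgrf1 fell below −1 with equal medians, where 4.14% of all promoters did. Counted from promoters of like CG number, 0 passed 2-fold in FVB/N, where 3.91% of all promoters were above and 6.17% below. On this count 1 member, again Rasgrf1, differed past 1 between strains. From promoters of like level, an alternative chosen after seeing the data, 0 passed 2-fold in C57BL/6J and 0 differed past 1 between strains in their DEHP ratio. The difference of the DEHP ratio between strains at Meg3 reversed from −1.03 to 0.19. The ratio between the strains' controls at Meg3 did not reverse (1.02). Shares of all promoters are not given for like level, nor for the difference of the DEHP ratio under any of these alternatives. A range of 1 SD set groups apart at 2 members in C57BL/6J, 1 in FVB/N, 2 among controls and 1 among DEHP males. The cause was not tested. The share of all promoters with groups apart at 1 SD is not given. The counts at 1 SD therefore cannot be set against the shares given above, which belong to the wider range. No other alternative took a count beyond 1.5 times its value, and median percentiles stayed within the spread of the members. Leaving out single males was not run. No paired analysis was possible because the columns carry no replicate numbers and no test was run.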
